A study of Mus musculus with 4 samples.

Results

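Interferon-high T cells of LLC tumors were described in single-cell RNA profiles of CD45-positive leukocytes. A barcode counted as such a cell when it had at least 200 genes, at most 10% mitochondrial UMIs, at least 2 UMIs of Cd3d, Cd3e and Cd3g together, at most 5 UMIs of Lyz2, and at least 3 UMIs of Ifit1, Ifit3 and Rsad2 together. A UMI is 1 tagged molecule of RNA. The rule found 532 such cells among the 41851 barcodes kept from all 4 libraries of the series, 128 of them in the KO tumor library and 404 in the WT tumor library. The other 1469 KO and 4129 WT tumor T cells, with at most 2 UMIs of the 3 interferon genes, are called other T cells.

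KO mice had the genotype S100a8fl/fl Vav-Cre+/-, in which a Cre active in blood-forming cells deletes S100a8 in the hematopoietic system. WT mice had the genotype S100a8fl/fl Vav-Cre-/-, so both groups carried the floxed allele and only the KO mice carried Cre. Cells were sorted from LLC tumors (a mouse Lewis lung carcinoma line) and from bone marrow of tumor-free mice, with no treatment in either group, and each library pooled the cells of 3 mice. The labels give no age. With 1 library per group there is no replicate, so no difference below was tested. Intervals are 95% and cover counting error only.

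The tumor libraries held 11836 KO and 12027 WT barcodes with 111214201 and 102548178 UMIs, of which 11413 and 11621 barcodes were kept. T cells were 13.99% of kept KO barcodes and 39.0% of kept WT barcodes. S100a8 had 0 UMIs in all KO T cells, against 323 UMIs in the 404 WT interferon-high T cells and 143 in the 4129 other WT T cells. These counts include barcodes that also held RNA of other cell types, called mixed below. The median cell of both WT classes had 0 UMIs of the 11 neutrophil markers, which include S100a8. The highest cell had 239 in WT interferon-high and 191 in other WT T cells. Without mixed barcodes the highest WT interferon-high T cell had 6. The source of the S100a8 RNA was not tested. The share of mitochondrial UMIs lay between 1.47% and 1.77% in each class of T cells. The tumor libraries shared 33 barcode sequences, of which 0 KO and 3 WT interferon-high T cells carried one.

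Interferons are cytokines of antiviral defense and of tumor immunity. Type I interferons bind the receptor of Ifnar1 and Ifnar2, whose kinases Jak1 and Tyk2 signal to Stat2, which joins Irf9 in a complex that binds the interferon-stimulated response element of promoters. Interferon gamma, made by T and NK cells, binds Ifngr1 and Ifngr2. Ifit proteins bind foreign RNA, and Rsad2 (viperin) makes a nucleotide that blocks viral polymerases.

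Shown next are the promoters of the 3 genes that chose the cells, and of Isg15 and Slfn5, which the rule did not use. The response element is a sequence feature of some interferon-induced genes, not of all. Each line gives 200 bases before the RefSeq transcription start in GRCm38.p6, 5′ to 3′ on the gene's strand, and capitals mark the response element, searched as GAAA, any pair of bases and GAAA, or as the reverse complement, TTTC, any pair of bases and TTTC. The windows lie at chr19:34640689-34640888 on the plus strand (Ifit1), chr19:34583329-34583528 on the plus strand (Ifit3), chr12:26456453-26456652 on the minus strand (Rsad2), chr4:156200819-156201018 on the minus strand (Isg15) and chr11:82951902-82952101 on the plus strand (Slfn5).
Ifit1: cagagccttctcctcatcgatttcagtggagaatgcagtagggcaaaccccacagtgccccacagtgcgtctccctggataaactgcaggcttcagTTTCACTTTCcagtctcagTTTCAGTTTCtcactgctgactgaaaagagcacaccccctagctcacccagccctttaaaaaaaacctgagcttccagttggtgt
Ifit3: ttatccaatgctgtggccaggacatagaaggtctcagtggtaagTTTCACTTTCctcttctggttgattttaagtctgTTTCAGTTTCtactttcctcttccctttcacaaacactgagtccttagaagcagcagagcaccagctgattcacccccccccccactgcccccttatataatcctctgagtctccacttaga
Rsad2: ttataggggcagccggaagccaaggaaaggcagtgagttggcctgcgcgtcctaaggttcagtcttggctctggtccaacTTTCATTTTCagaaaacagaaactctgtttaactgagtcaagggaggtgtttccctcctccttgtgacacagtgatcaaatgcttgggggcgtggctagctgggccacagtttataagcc
Isg15: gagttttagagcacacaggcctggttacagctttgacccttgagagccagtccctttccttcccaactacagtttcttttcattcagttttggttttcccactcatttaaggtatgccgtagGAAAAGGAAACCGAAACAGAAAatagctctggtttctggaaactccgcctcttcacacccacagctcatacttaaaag
Slfn5: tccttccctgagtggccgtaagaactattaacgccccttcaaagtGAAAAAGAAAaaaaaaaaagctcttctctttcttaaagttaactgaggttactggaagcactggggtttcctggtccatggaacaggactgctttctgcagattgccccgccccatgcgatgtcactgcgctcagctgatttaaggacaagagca

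Ifit1 and Ifit3 hold 2 matches each, Rsad2 and Slfn5 hold 1 each, and Isg15 holds 3 that overlap one another. Searched on both strands in 300 bases from 250 before to 50 after the start, the motif was present in 1131 of 32851 promoter windows in RefSeq (3.44%). Counted by gene, with any window enough, it was in 1079 of 27025 genes (3.99%). Among genes measured in both libraries it was in 300 of 7227 with a promoter (4.15%). Of the 134 listed interferon-induced genes that the files name, rule genes included, 109 matched a RefSeq promoter and 55 of these (50.5%) held the motif. Among the 191 genes at least 2-fold higher in interferon-high than in other T cells of both libraries, 53 of 161 with a promoter held it (32.9%). It was in 9 of 84 (10.7%) of those outside the 11 lists of interferon-induced genes, and in 0 of 48 genes at least 2-fold lower in both libraries. A match is a stretch of letters, and binding was not measured.

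The rule's own genes set the range of the cells. Interferon-high T cells held a median of 11 UMIs of Ifit1, Ifit3 and Rsad2 in KO (3 to 283) and 7 in WT (3 to 100). At least 10 such UMIs were found in 52.3% of KO cells (43.3 to 61.2) and 39.9% of WT cells (34.97 to 44.8). All 3 genes were detected in 66 KO cells (51.6%) and 207 WT cells (51.2%), and Cd3e, the CD3 epsilon chain, in 84.4% and 86.9%. At the edge, 16 KO and 85 WT cells had exactly 3 UMIs of the interferon genes, while 29 KO and 152 WT T cells stood outside with exactly 2. On the T cell side, 1 KO and 5 WT cells had exactly 2 Cd3 UMIs, and 18 KO and 13 WT barcodes were left out with 1. For Lyz2, a lysozyme of myeloid cells, 2 KO and 10 WT cells had exactly 5 UMIs, and 67 KO and 196 WT barcodes were left out with more.

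The cells carried the T cell markers of their label. The 13 T cell markers were all detected, with a summed level of 6342 CPM (the UMIs of a gene or list per 1000000 UMIs of the class) in KO interferon-high and 7170 in other KO T cells, and 6617 in WT interferon-high and 7563 in other WT T cells. Without the mixed barcodes defined next, these sums were 7734 and 7556 CPM in KO and 8679 and 8681 CPM in WT. Some barcodes also held RNA of other cell types. A barcode with more than 10 UMIs of neutrophil genes, more than 10 of macrophage or monocyte genes, or more than 20 of MHC class II genes is called mixed here, a definition chosen after the data were seen. Mixed barcodes were 25 of 128 KO interferon-high T cells (19.5%), against 6.06% of other KO T cells, and 87 of 404 WT interferon-high T cells (21.5%), against 9.25% of other WT T cells.

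The kind of foreign RNA differed between the libraries. In KO, 20 interferon-high T cells passed the neutrophil limit, 19 the macrophage limit and 3 the MHC class II limit. In WT, 11 passed the neutrophil limit, 14 the macrophage limit and 76 the MHC class II limit. Mixed cells were deeper, with medians of 10675 UMIs in mixed KO cells and 6279 in the rest, and 17078 and 5532 in WT. The 11 neutrophil markers summed to 4917 CPM in KO interferon-high and 1243 in other KO T cells, and to 455 in WT interferon-high and 126 in other WT T cells. Without mixed barcodes the same sums were 177 and 175 CPM in KO, and 18.5 and 47.9 CPM in WT. Genes of this list, and of the dendritic and macrophage lists below, also define the mixed barcodes. Lower sums on their removal thus follow from the definition and are no test of it. The 12 dendritic markers, which include MHC class II genes, summed to 1084 and 1187 CPM in KO and to 12052 and 7046 CPM in WT, and without mixed barcodes to 265 and 240 CPM in KO and 422 and 389 CPM in WT. The 18 macrophage and monocyte markers summed to 2617 and 1536 CPM in KO and to 2124 and 1455 CPM in WT, and without mixed barcodes to 931 and 942 CPM in KO and 987 and 923 CPM in WT. The 8 plasmacytoid dendritic markers, which include Bst2 and Irf8, summed to 857 and 326 CPM in KO and to 1289 and 564 CPM in WT, and without mixed barcodes to 1015 and 311 CPM in KO and 1243 and 458 CPM in WT. Bst2, itself interferon-induced, made up 958 CPM of that sum in KO interferon-high and 1043 CPM in WT interferon-high T cells. The defining gene Siglech stood at 0 UMIs in KO interferon-high T cells and at 25.3 CPM in WT ones, which became 0.475 CPM without mixed barcodes. Results that move when mixed barcodes are left out are given both ways.

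**Figure D1:**
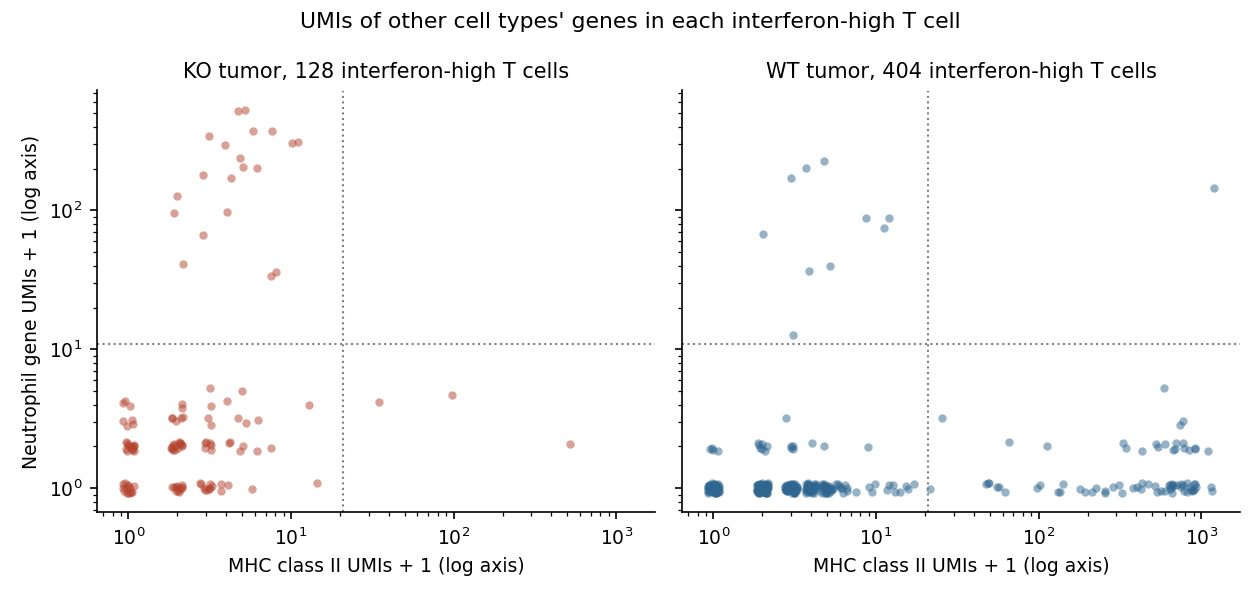
UMIs of MHC class II genes (x axis) and of neutrophil genes (y axis), each plus 1 on a log axis, in every interferon-high T cell of the KO tumor (left) and WT tumor (right). Points are cells with a small random offset, and dotted lines are the limits of 20 and 10 UMIs. In KO most mixed cells lie high on the neutrophil axis (20 cells) and in WT most lie far along the MHC class II axis (76 cells).

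Interferon-high cells were about as frequent among T cells of both tumors. They were 8.02% of KO T cells (6.73 to 9.46) and 8.91% of WT T cells (8.10 to 9.78), a ratio of 0.90 (0.74 to 1.09, Katz interval; shares carry Clopper-Pearson intervals). With every barcode thinned to 3000 UMIs, which left out 53 KO and 406 WT shallower T cells, the shares were 5.82% and 5.62%. Without mixed barcodes they were 6.95% and 7.80%. A limit of 2 rule UMIs gave shares further apart, 9.83% in KO and 12.3% in WT, and a limit of 5 gave 6.20% and 6.02%. Since T cells were a smaller part of the KO library, interferon-high T cells were fewer there in number. The interval of the ratio of shares includes 1 at the limit of 3 rule UMIs.

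The share varied by T cell subset. Among CD8 T cells (Cd8a or Cd8b1 without Cd4 or Foxp3), 10.47% were interferon-high in KO and 10.35% in WT, a ratio of 1.01 (0.77 to 1.32). Among conventional CD4 T cells, 6.21% were interferon-high in KO (22 of 354) and 11.3% in WT (158 of 1399), a ratio of 0.55 (0.36 to 0.85). That gap became smaller at even depth, where the shares were 5.62% in KO and 7.27% in WT with a ratio of 0.77 (0.45 to 1.33). At 2000 UMIs it was wider, with a ratio of 0.25 (0.079 to 0.80). Regulatory T cells, which carry the transcription factor Foxp3, were interferon-high in 9.45% of KO cells (12 of 127) and 6.49% of WT cells (32 of 493), a ratio of 1.46 (0.77 to 2.74). At 3000 UMIs their shares were 4.85% in KO and 4.84% in WT with a ratio of 1.0 (0.37 to 2.69), and at 2000 UMIs the ratio was 2.62 (0.86 to 8.03). Gamma-delta T cells had the lowest share of the T cell subsets in both libraries, 1.64% in KO (2 of 122) and 2.56% in WT (9 of 351).

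Natural killer cells had low shares as well, 2.52% in KO (4 of 159) and 2.11% in WT (20 of 950). Myeloid barcodes (over 5 Lyz2 UMIs and no Cd3 UMI) were interferon-high in 10.48% of KO and 13.1% of WT cells. They were deeper, with medians of 10486.5 KO and 8902 WT UMIs against 6262 and 5406 in T cells, and at 3000 UMIs their shares were 4.72% and 5.35%. In bone marrow the rule found 6 of 256 KO T cells and 3 of 231 WT T cells, and 2 in each without mixed barcodes.

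**Figure D2:**
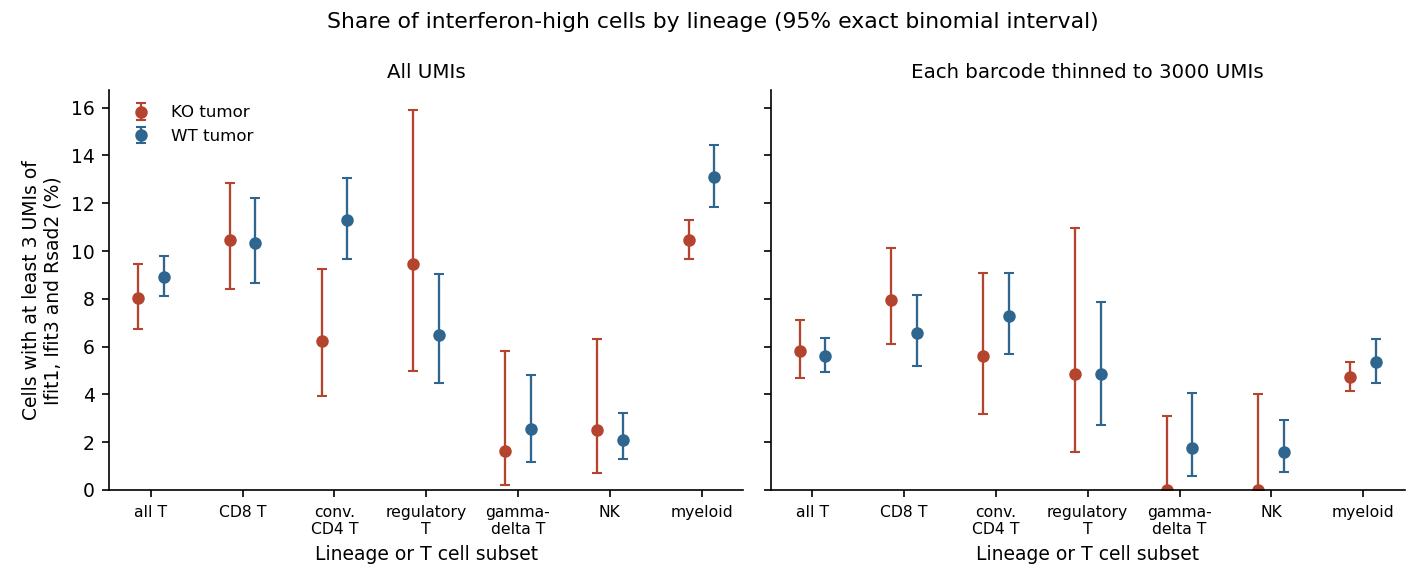
Share of cells that were interferon-high (y axis, percent) in T cells, T cell subsets, NK and myeloid cells (x axis) of the KO tumor (red) and WT tumor (blue), with all UMIs (left) and after thinning to 3000 UMIs (right). Points are the library's share and bars its 95% exact binomial interval. CD8 T cells lie at 10.47% in KO and 10.35% in WT with all UMIs, and the bars of conventional CD4 T cells overlap only after thinning.

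The T cell subsets made up different parts of the class in the KO and WT tumors. CD8 cells were 62.5% of KO interferon-high T cells and 46.6% of other KO T cells, against 29.95% and 25.4% in WT. Conventional CD4 cells were 17.2% of KO interferon-high T cells and 22.6% of other KO T cells, against 39.1% and 30.1% in WT. So the KO cells described here were mostly CD8 and the WT cells were spread over CD8 and CD4, which bears on each comparison of KO with WT below. Values within CD8 cells are given where they differ.

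The response reached well beyond the rule's genes. Over the 137 listed interferon-induced genes that remain after Ifit1, Ifit3, Rsad2 and Ifit3b are left out, the median cell devoted 4.42% of its UMIs to them in KO interferon-high and 1.46% in other KO T cells. In WT the values were 3.96% in interferon-high and 1.59% in other T cells. Without mixed barcodes they were 4.64% and 1.46% in KO, and 4.34% and 1.57% in WT. The share went up in steps with the number of rule UMIs. It was 1.41% in KO and 1.51% in WT with no rule UMI, 2.01% and 2.21% with 1 to 2, and 3.35% and 3.1% with 3 to 5. At 30 or more it was 5.92% in KO (28 cells) and 6.24% in WT (32 cells). Without mixed barcodes the order of the libraries turned there, with 6.78% in KO (20 cells) and 6.66% in WT (25 cells). The rank correlation within interferon-high T cells was 0.56 over 128 KO cells and 0.47 over 404 WT cells, as a description, since the genes share a cell's depth. Without mixed barcodes it was 0.68 over 103 KO cells and 0.55 over 317 WT cells. The classes overlapped at their edges. Of other T cells, 3.81% in KO and 3.39% in WT lay above the interferon-high median, and 4.69% and 5.94% of interferon-high T cells lay below the other T cell median. Without mixed barcodes 3.12% and 2.59% of other T cells lay above, and 1.94% and 2.52% of interferon-high T cells lay below.

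**Figure D3:**
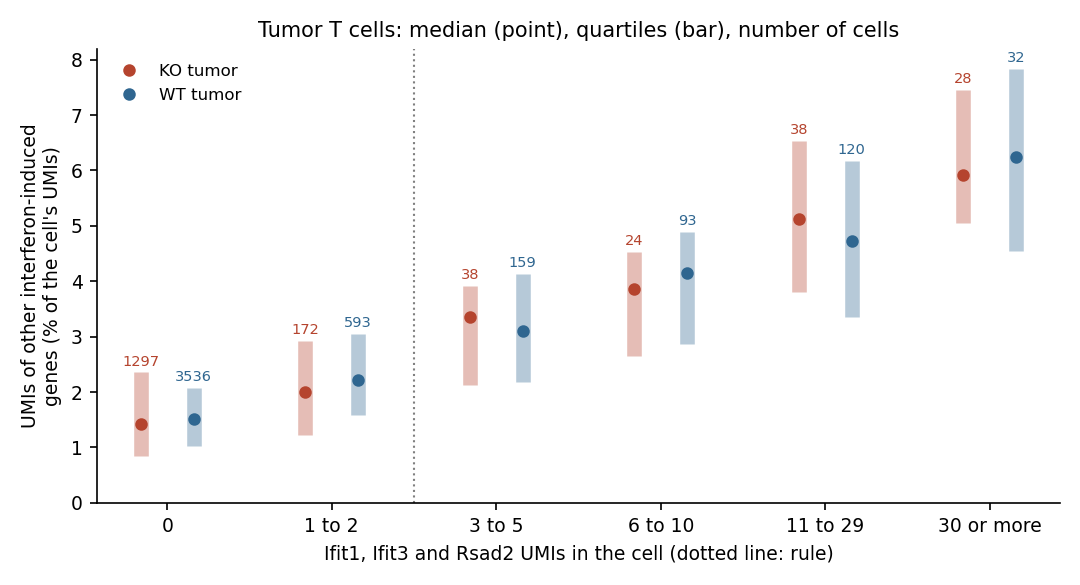
Share of a T cell's UMIs from interferon-induced genes that the rule did not use (y axis, percent) by the number of Ifit1, Ifit3 and Rsad2 UMIs in the cell (x axis), for the KO tumor (red) and WT tumor (blue). Points are medians, bars span the quartiles, numbers are cells, and the dotted line is the rule. Medians climb from 1.41% in KO and 1.51% in WT with no rule UMI to 5.92% and 6.24% with 30 or more. Mixed barcodes are included.

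The level of this response differed between subsets. In other T cells the median share was 2.25% in KO and 2.02% in WT CD8 cells, and 1.14% and 1.60% in conventional CD4 cells. Gamma-delta cells were lowest, at 0.530% in KO and 0.758% in WT. Interferon-high CD8 and conventional CD4 cells lay close together, at 4.61% and 4.78% in KO and at 4.31% and 4.13% in WT. Interferon-high regulatory T cells were lower, at 2.93% in KO (12 cells) and 3.89% in WT (32 cells). Without mixed barcodes they were at 3.28% in KO (8 cells) and 4.12% in WT (22 cells).

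Gene by gene, the contrast of interferon-high with other T cells is the rule's own contrast, so its values describe the cells and were not tested. UMIs were summed per class and scaled to CPM, and a gene was measured with at least 50 UMIs over both classes. In KO, 429 of 9112 measured genes were at least 2-fold higher in interferon-high T cells (4.71%) and 767 at least 2-fold lower (8.42%). In WT, 365 of 10823 were higher (3.37%) and 390 lower (3.6%). The classes differed in size, with 977658 UMIs in KO interferon-high and 10926377 in other KO T cells, and 3590666 and 29060664 in WT. A gene near the limit of 50 UMIs thus had few UMIs in the smaller class. From 200 UMIs on, 242 genes were higher and 163 lower in KO, and 204 and 100 in WT. In both libraries, 191 of 9059 genes measured in both were higher (2.11%) and 64 lower (0.706%). Without mixed barcodes, 284 of 8724 were higher in KO (3.26%) and 840 lower (9.63%), and in WT 304 of 10151 were higher (2.99%) and 495 lower (4.88%). In both libraries without mixed barcodes, 166 genes were higher in both libraries (1.91%) and 97 lower (1.12%).

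Of the interferon-induced genes outside the rule, 99 of 118 measured in KO were at least 2-fold higher and 1 was lower, with a median log2 ratio of 2.14 beside −0.14 over all genes. In WT, 98 of 125 were higher and 0 lower, with a median of 1.66 beside −0.09. These medians were 2.38 in KO and 1.91 in WT without mixed barcodes. In CD8 cells alone without mixed barcodes they were 2.49 and 2.10. The ratio was larger in KO than in WT for 103 of the 118 genes measured in both.

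The rule genes come first as a description of the cells. Ifit1 had 1092 CPM in KO interferon-high and 6.59 in other KO T cells, and 570 CPM in WT interferon-high and 11.4 in other WT T cells. Ifit3 had 611 and 5.22 CPM in KO, and 415 and 8.81 CPM in WT. Rsad2 had 1030 and 6.59 CPM in KO, and 332 and 5.47 CPM in WT. Between libraries, Rsad2 differed most of the 3, but 1 KO barcode held 202 of its 1007 UMIs. Without mixed barcodes Rsad2 had 601 CPM in KO interferon-high and 419 CPM in WT interferon-high T cells.

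**Figure D4:**
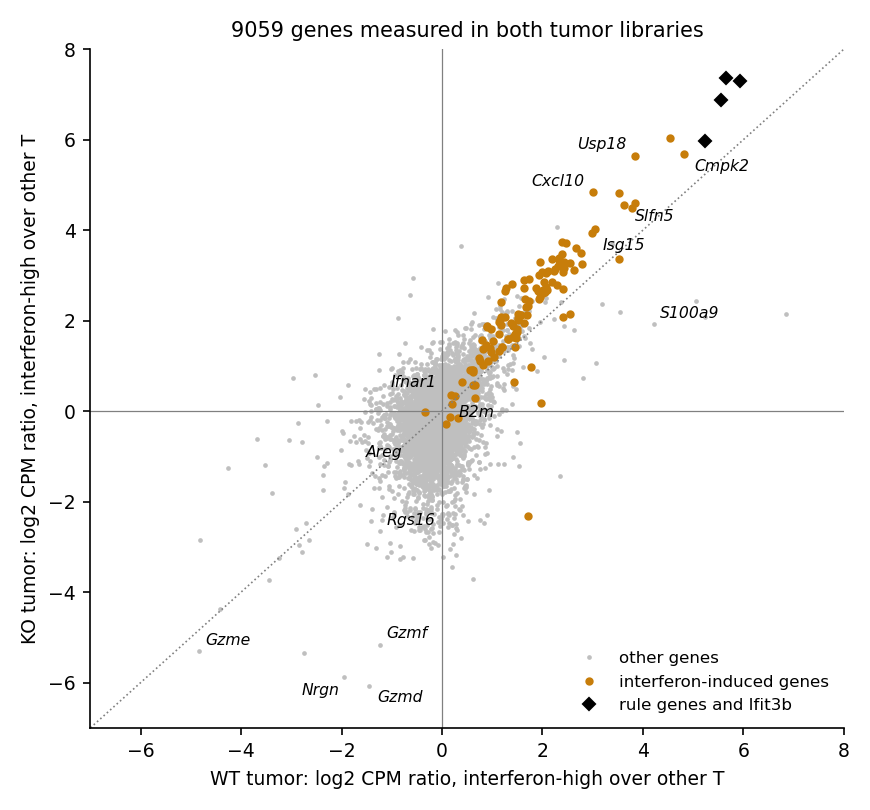
Log2 CPM ratio of interferon-high over other T cells in the WT tumor (x axis) and KO tumor (y axis) for each of 9059 genes measured in both libraries. Grey points are other genes, orange points interferon-induced genes outside the rule, and black diamonds the rule genes and Ifit3b. Most orange points lie above the dotted line of equal ratios, 103 of 118, and granzyme genes lie at the lower left.

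Among receptors and signaling genes, the response split by step of the pathway. The receptor chains Ifnar1, Ifnar2 and Ifngr1 showed ratios near 1, while Ifngr2 was at least 2-fold lower in both libraries without mixed barcodes. Ifnar1 had 180 CPM in KO interferon-high and 138 in other KO T cells (ratio 1.31, 1.11 to 1.53), and 127 and 122 CPM in WT (1.04, 0.941 to 1.15). Ifnar2 had ratios of 1.06 in KO and 1.12 in WT, and Ifngr1 0.989 and 0.893. The kinases were alike, with ratios of 1.05 and 0.875 for Jak1 and 0.857 and 1.04 for Tyk2. Transcription factors that carry the signal were higher. Stat2 had 65.5 CPM in KO interferon-high and 12.1 in other KO T cells (ratio 5.42), and 55.1 and 15.9 CPM in WT (3.48), and Irf9, its DNA-binding partner, had ratios of 3.23 in KO and 1.95 in WT. Irf7, which drives transcription of interferon alpha genes, had 265 CPM in KO interferon-high and 46.8 in other KO T cells, and 310 and 73.4 CPM in WT.

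The feedback inhibitors differed among themselves. Usp18, which removes Isg15 from proteins and blocks Ifnar2 signaling, had 179 CPM in KO interferon-high and 3.57 in other KO T cells (ratio 50.1), and 124 and 8.64 CPM in WT (14.3). Socs1, a suppressor of JAK kinases, had ratios of 2.23 in KO and 1.36 in WT, and Socs3 2.01 and 1.28. The KO ratio of Socs3 was 1.43 without mixed barcodes. Of the 16 measured genes of this group, 7 were at least 2-fold higher in KO and 4 in WT, and 0 were lower. Without mixed barcodes 6 were higher in KO and 5 in WT, while Ifngr2 was lower in both libraries and Irf8 in KO. Irf8 ran apart, with 80.8 CPM in KO interferon-high and 155 in other KO T cells (ratio 0.521), and 302 and 223 CPM in WT (1.35). Without mixed barcodes its ratios were 0.259 in KO and 1.0 in WT.

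Interferon transcripts themselves were few. Of the 19 interferon genes listed, Ifng alone was measured. Type I and lambda interferon genes had 0 UMIs in KO interferon-high T cells, and WT cells had 2 of Ifnb1 and 1 of Ifnl2. Ifng had 236 CPM in KO interferon-high and 130 in other KO T cells (ratio 1.82), and 232 and 120 CPM in WT (1.93). Without mixed barcodes the ratios were 2.32 and 2.44, and 1 KO barcode held 71 of the 231 KO UMIs. At least 1 Ifng UMI was found in 36.7% of KO interferon-high (28.4 to 45.7) and 25.5% of other KO T cells, and in 41.6% (36.7 to 46.6) and 26.8% in WT. Myeloid barcodes, which should lack Ifng, had it in 0.726% of KO cells and 3.01% of WT cells at greater depth. In CD8 cells without mixed barcodes the ratio was 0.92 in KO and 2.10 in WT, where 1 barcode held 57 of 219 UMIs. The share of these CD8 cells with an Ifng UMI differed little between the classes. It was 43.5% of 69 KO interferon-high cells (31.6 to 56.0) and 40.5% of other KO cells. In WT it was 36.4% of 107 interferon-high cells (27.4 to 46.3) and 33.9% of other cells. In conventional CD4 cells without mixed barcodes, 37.5% of 16 KO interferon-high cells and 13.3% of other KO cells held an Ifng UMI, against 47.2% of 125 and 33.2% in WT.

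Antiviral effectors were higher as a group. All 9 measured genes of the group around Ifit, Rsad2 and Isg15, among them the 3 rule genes and Ifit3b, were at least 2-fold higher in both libraries. Ifit3b is a near copy of Ifit3 whose UMIs the counting could split. Isg15, a ubiquitin-like protein attached to other proteins, had 1575 CPM in KO interferon-high and 103 in other KO T cells (ratio 15.3), and 1601 and 202 CPM in WT (7.92). Cmpk2, a mitochondrial nucleotide kinase that neighbors Rsad2, had 173 and 3.39 CPM in KO (51.0), and 74.1 and 2.62 CPM in WT (28.3). Of the enzymes that attach or remove Isg15, 5 of 6 were at least 2-fold higher in both libraries, including the ligase Herc6 (6.46 in KO and 5.34 in WT) and the conjugating enzyme Ube2l6 (6.23 and 4.16). The activating enzyme Uba7 had ratios of 2.58 and 1.76.

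The RNA-degrading OAS system was also higher. All 5 OAS genes measured in both libraries were at least 2-fold higher in both. Oas3, which makes the messenger that activates RNase L, had 138 CPM in KO interferon-high and 15.4 in other KO T cells (ratio 8.98), and 99.7 and 18.5 CPM in WT (5.38). Eif2ak2, the kinase PKR that halts translation, had 121 and 14.6 CPM in KO, and 81.9 and 19.5 CPM in WT. Among RNA and DNA sensors, 5 of 9 were at least 2-fold higher in both libraries. Ifih1 (MDA5), a sensor of double-stranded RNA, had 116 and 9.52 CPM in KO, and 97.2 and 15.2 CPM in WT. Zbp1, a sensor of left-handed nucleic acid, had 535 and 80.5 CPM in KO, and 535 and 146 CPM in WT.

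Large interferon-induced gene families were higher together. All 12 measured Ifi200 genes with Xaf1, 14 of 15 GBP and IRG GTPases, 5 of 6 Schlafen genes and 5 of 6 PARP genes with Dtx3l were at least 2-fold higher in both libraries. Slfn5 had 419 CPM in KO interferon-high and 17.8 in other KO T cells (ratio 23.6), and 232 and 18.8 CPM in WT (12.4). Gbp2, a GTPase that attacks pathogen vacuoles, had 433 and 59.4 CPM in KO, and 349 and 76.5 CPM in WT. Irgm1, a regulator of the IRG family, had ratios of 8.08 in KO and 3.81 in WT. Parp14 had 6.15 and 4.06, and Trim30a, one of 8 of 13 TRIM genes higher in both libraries, had 6.70 and 4.19.

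Surface and secreted products followed. Cxcl10, the chemokine that draws cells bearing Cxcr3, had 2206 CPM in KO interferon-high and 76.7 in other KO T cells (ratio 28.8, 26.5 to 31.2), and 962 and 120 CPM in WT (8.0, 7.63 to 8.39). At least 1 Cxcl10 UMI was found in 68.8% of KO interferon-high (59.96 to 76.6) and 19.9% of other KO T cells, and in 55.7% (50.7 to 60.6) and 19.1% in WT. Thinned to 3000 UMIs, these shares were 62.5% and 11.4% in KO, and 45.2% and 12.2% in WT. NK cells, which are lymphocytes outside the class, held a Cxcl10 UMI in 35.8% in KO and 18.2% in WT, at medians of 11282 and 5871.5 UMIs. The part of free RNA in these shares was not tested. Bst2 (tetherin) had 756 CPM in KO interferon-high and 154 in other KO T cells, and 859 and 270 CPM in WT. Cd274, which encodes the checkpoint ligand PD-L1, had 305 and 86.8 CPM in KO (3.51), and 136 and 69.0 CPM in WT (1.98).

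MHC class I presentation showed smaller ratios. Of 18 genes measured in both libraries, 2 were at least 2-fold higher in KO, 0 in both and 0 lower, and without mixed barcodes 3 were higher in both. Tapbp (tapasin), which loads peptides, had ratios of 2.24 in KO and 1.79 in WT, and the nonclassical gene H2-T22 had 2.10 and 1.91. Tap1, a peptide transporter, had 1.77 and 1.53. B2m, the light chain of class I molecules, had 3906 CPM in KO interferon-high and 3309 in other KO T cells (1.18), and 3836 and 3419 CPM in WT (1.12).

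**Figure D5:**
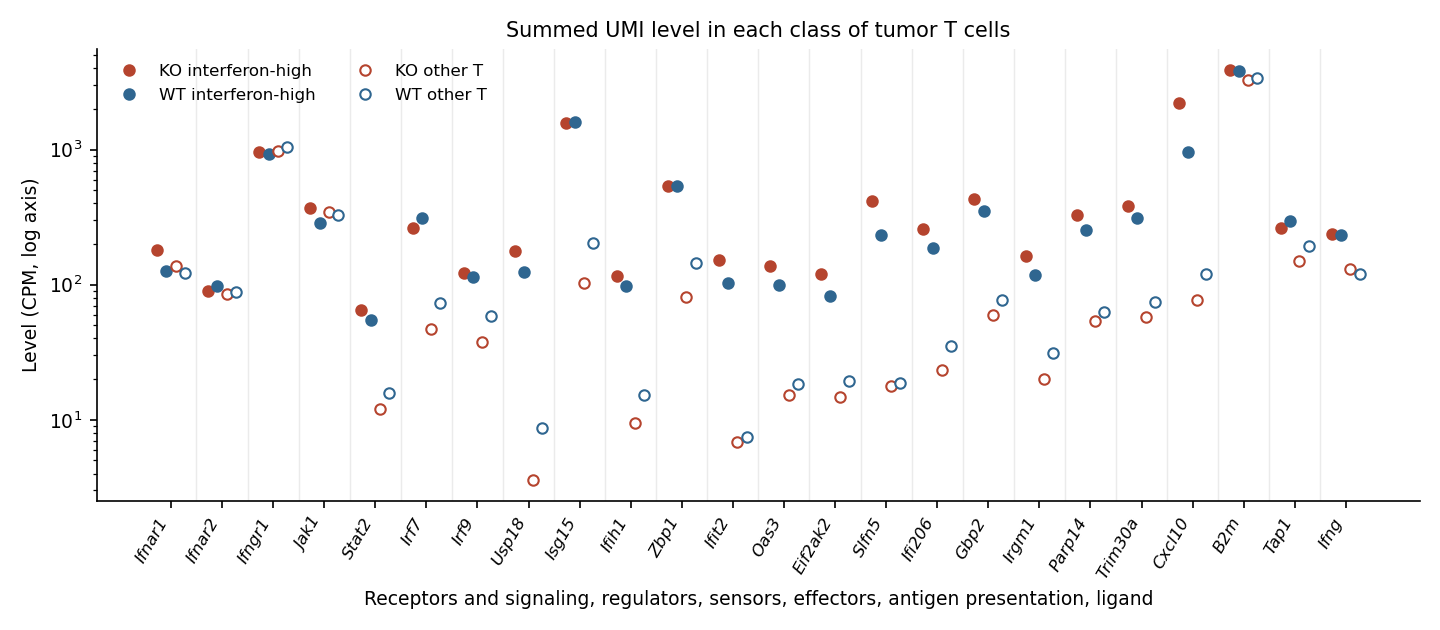
Level in CPM (y axis, log axis) of genes of the interferon pathway (x axis, from receptors and signaling to effectors, antigen presentation and Ifng) in interferon-high T cells (filled) and other T cells (open) of the KO tumor (red) and WT tumor (blue). Each point is 1 library's summed UMIs. Ifnar1, Ifnar2, Ifngr1 and Jak1 show filled and open points together, while Usp18 stands at 179 CPM in KO interferon-high and 3.57 in other KO T cells.

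The T cell programs outside interferon were mostly lower or even. Of 18 cytotoxic genes measured in both libraries, 1 was at least 2-fold higher and 4 at least 2-fold lower in both. Over all genes 2.11% were higher and 0.706% lower in both. Without mixed barcodes 1 cytotoxic gene was higher and 3 were lower, beside 1.91% and 1.12% of all genes. Granzymes of the cluster around Gzmc were low in interferon-high T cells. Gzmf had 13.3 CPM in KO interferon-high and 476 in other KO T cells, and 9.75 and 22.9 CPM in WT. Its WT ratio was 0.425, and 0.0383 without mixed barcodes. Gzme had 0 UMIs in KO interferon-high T cells and 122 CPM in other KO T cells, at least 39.7-fold lower with 0 set to 3 UMIs over the class. In WT it had 2 UMIs and 15.9 CPM (ratio 0.0350, 0.00422 to 0.127). Gzmc had 50.1 and 246 CPM in KO, and 59.0 and 133 CPM in WT, but within CD8 cells without mixed barcodes its WT ratio was 1.21. Gzmc, Gzme and Gzmf are closely related copies, so reads could be shared out among them.

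Areg and Rgs16 were also lower in both libraries. Areg, a growth factor made by regulatory T cells, had 114 CPM in KO interferon-high and 254 in other KO T cells (ratio 0.447), and 63.2 and 197 CPM in WT (0.320). Without mixed barcodes its ratios were 0.185 in KO and 0.231 in WT. Rgs16, a brake on G protein signaling found in activated T cells, had 23.5 and 148 CPM in KO, and 56.5 and 133 CPM in WT. The costimulatory receptors Tnfrsf9 (4-1BB) and Tnfrsf4 (OX40) had ratios of 0.692 and 0.805 in KO, and 0.559 and 0.545 in WT. Of the 16 costimulation and activation genes measured in both libraries, 0 were at least 2-fold higher or lower in both. No gene of the 13 naive and egress genes was 2-fold higher or lower in both libraries. Of 16 genes in the list of checkpoint receptors and exhaustion, 0 were higher in both libraries and 1, Rgs16, was lower in both. Without mixed barcodes 0 were higher and 2 lower in both. Of 15 regulatory T cell genes, 1 was lower in both, and 5 were lower in WT, where 178 of 9059 genes were lower. Without mixed barcodes 2 were lower in both and 6 in WT, where 268 of 8695 genes were lower. Over all genes 2.11% were higher and 0.706% lower in both libraries, and 1.91% and 1.12% without mixed barcodes.

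Some cell cycle genes were lower, most of them in KO. Of S phase genes, 7 of 24 were at least 2-fold lower in KO interferon-high T cells (8.42% of all genes) and 0 of 24 in WT (3.6% of all genes). Of G2 and M phase genes, 7 of 23 were lower in KO and 0 of 24 in WT. Within CD8 cells without mixed barcodes, 2 of 22 S phase genes were lower in KO and 1 of 23 in WT. There 6 of 21 G2 and M phase genes were lower in KO and 4 of 22 in WT. Of all genes in these CD8 comparisons, 585 of 7134 were lower in KO and 497 of 7937 in WT. In all interferon-high T cells without mixed barcodes, 5 of 23 G2 and M phase genes were lower in KO (9.63% of all genes). In WT 0 of 24 were lower (4.88% of all genes). In that WT comparison, 10 of 24 S phase genes and 18 of 24 G2 and M phase genes lay above 1. Ube2c, which drives exit from mitosis, had 21.5 CPM in KO interferon-high and 65.6 in other KO T cells (0.327, 0.201 to 0.504), and 53.5 and 68.6 CPM in WT (0.779, 0.668 to 0.904). Its UMIs came from 3 KO and 36 WT cells. Ccna2 (cyclin A2) had 6.14 and 24.1 CPM in KO, and 18.9 and 21.9 CPM in WT. Immediate early genes were at least 2-fold higher for 7 of 20 in KO (4.71% of all genes). Without mixed barcodes 0 of 20 were higher in KO (3.26% of all genes), and Fos, Egr1 and Atf3 had KO ratios of 0.54, 0.52 and 0.34.

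Outside the 11 lists of interferon-induced genes, 100 of the 191 genes higher in both libraries remained, and 36 of these were still at least 2-fold higher in both without mixed barcodes. They include Stat2 and Irf7 of the receptor and signaling list. They also include Tnfsf10 (TRAIL), a ligand that triggers death receptors, with ratios of 3.46 in KO and 2.31 in WT, and Casp4, the mouse inflammatory caspase also called caspase-11, with 2.5 and 2.35.

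Comparing the libraries within the class, 219 of 6763 measured genes were at least 2-fold higher in KO than in WT interferon-high T cells (3.24%) and 407 at least 2-fold lower (6.02%). Without mixed barcodes, 61 of 5225 were higher (1.17%) and 183 lower (3.5%). In CD8 cells without mixed barcodes, 48 of 2968 were higher (1.62%) and 61 lower (2.06%). With mixed barcodes the genes with the highest ratios included neutrophil genes such as Lcn2, G0s2 and S100a9, and those with the lowest included the dendritic and macrophage genes H2-DMb2, Mgl2 and Cxcl9. The summed neutrophil and MHC class II values above move with these genes, and their part in the result was not tested.

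Interferon-induced genes lay slightly higher in KO than in WT within the class and lower outside it. Over 121 measured genes, 7 were at least 2-fold higher (3.24% of all genes) and 4 at least 2-fold lower (6.02% of all genes) in KO interferon-high T cells. Their ratios lay above 1 for 85 genes, with a median log2 ratio of 0.24 beside −0.10 over all genes. Without mixed barcodes 5 of 111 were higher in the class (1.17% of all genes) and 5 lower (3.5% of all genes). In other T cells 3 of 124 were higher (2.53% of all genes) and 10 lower (3.16% of all genes), with a median of −0.33 beside −0.05. Without mixed barcodes 3 of 120 were higher there (1.85% of all genes) and 8 lower (1.26% of all genes). Of the 121 genes, 68 were above 1 in interferon-high and below 1 in other T cells. Without mixed barcodes the medians were 0.14 and −0.35, and in CD8 cells alone without mixed barcodes 0.20 and −0.22. With Lyz2 at 0 UMIs in every T cell, the median within the class was −0.034. Both classes come from the same 2 libraries, and the rule fixes the rule genes at a low level in other T cells.

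Single genes show the size of these differences. Cxcl10 had 2206 CPM in KO and 962 in WT interferon-high T cells (2.29, 2.17 to 2.42), and 2344 and 1165 CPM without mixed barcodes (2.01). Isg15 had 1575 CPM in KO and 1601 in WT (0.984, 0.929 to 1.04), and 0.705 without mixed barcodes. Ifi208, a member of the Ifi200 family, had 49.1 CPM in KO and 152 in WT (0.324, 0.236 to 0.436), and was also lower in KO among other T cells (0.194). Oas1a had 54.2 CPM in KO and 100 in WT (0.541, 0.397 to 0.723), and 0.323 in other T cells. Ifi208 and its family are near copies, so their UMIs can be split between members.

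Without mixed barcodes, other genes had high ratios, and those named here were chosen after their values were seen. S100a9, the partner of S100a8, had 107 CPM in KO and 1.43 in WT interferon-high T cells (74.9, 24.6 to 372), and a ratio of 23.2 in other T cells. Ifitm1, an antiviral membrane protein, had 1904 and 160 CPM (11.9, 10.54 to 13.4), and 9.53 in other T cells. Ifitm2 had a ratio of 4.11 and Cxcl2, a chemokine for neutrophils, 7.60, with 4.05 and 4.54 in other T cells. S100a9, Ifitm1, Ifitm2 and Cxcl2 were thus higher in KO in both classes. In KO the neutrophil markers summed to 177 CPM in these cells and in WT to 18.5 CPM. S100a8 counts toward the mixed limit and had 0 UMIs in KO T cells, so that limit was reached on fewer genes in KO. The part of RNA from neutrophils in these ratios was not tested.

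Of the cytotoxic list, 1 of 14 genes was at least 2-fold higher in KO than in WT without mixed barcodes and 0 were lower, with a median log2 ratio of 0.09. Of the checkpoint list, 1 of 12 was higher and 2 were lower. Over all genes of this comparison, 1.17% were higher and 3.5% lower. Both lists are too short for their counts to be set apart from these shares. Single genes with high ratios, chosen after their values were seen and given here without mixed barcodes, included receptors of T and NK cells. Klrc1 (NKG2A), an inhibitory receptor of CD8 and NK cells, had 347 CPM in KO and 101 in WT interferon-high T cells (3.43, 2.84 to 4.15). Pdcd1, the checkpoint receptor PD-1, had 469 and 193 CPM (2.42, 2.09 to 2.81), and Klrk1 (NKG2D), an activating receptor, 541 and 218 CPM (2.48, 2.16 to 2.85). Fgl2, a secreted protein of T cells, had 237 and 75.1 CPM (3.16, 2.52 to 3.96). Cd8a itself had 494 and 232 CPM, and within CD8 cells the ratios of Klrc1, Pdcd1, Klrk1 and Fgl2 were 2.61, 2.16, 1.98 and 2.31. In other T cells they were 1.95, 1.62, 1.5 and 1.57.

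Lower in KO without mixed barcodes were Irf8, with 35.6 CPM in KO and 175 in WT (0.203, 0.128 to 0.307), and Xcl1, a chemokine for cross-presenting dendritic cells, with 60.8 and 202 CPM (0.301, 0.213 to 0.415). Ccr7, the receptor that guides T cells to lymph nodes, had 32.6 and 103 CPM (0.318, 0.195 to 0.494), but 0.781 within CD8 cells. Birc5 (survivin), a gene of dividing cells, had 17.8 and 68.0 CPM (0.262, 0.132 to 0.472).

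Interferon-high myeloid barcodes, 577 in KO and 348 in WT chosen by the same 3 genes, were set beside the T cells without mixed barcodes. Of genes measured, 1601 of 7609 in KO were at least 2-fold higher in T cells (21%) and 1745 lower (22.9%), and in WT 1320 of 7429 were higher (17.8%) and 1422 lower (19.1%). GBP and IRG genes were at least 2-fold higher in T cells for 11 of 15 in KO and 8 of 16 in WT, with 0 lower. OAS genes ran the other way, with median log2 ratios of −1.16 in KO and −1.25 in WT. Oasl1 had 48.9 CPM in KO T cells against 159 in KO myeloid barcodes, and 57.0 CPM in WT T cells against 180 in WT myeloid barcodes. Over all interferon-induced genes outside the rule the medians were 0.81 in KO and 0.40 in WT, beside 0.12 and 0.09 over all genes.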

How the data were processed

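The 4 libraries held 10x Genomics UMI counts per gene and barcode, 1 library per genotype and tissue. The deposited counts are whole numbers that the authors made with Cell Ranger, version 3.1.0 for bone marrow and 6.0.2 for tumor, as the file headers record. Another version, 6.1.2, stands in the submitters' processing notes next to R 4.2.1 and Seurat 4.3.0. The genome build is not given in the sources used here. Features numbered 32285 under 32245 symbols in the tumor libraries and 31053 under 31017 in the bone marrow libraries, and rows of 1 symbol were summed.

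Barcodes were kept from 200 genes upward where mitochondrial UMIs made up no more than 10%. No doublet caller was applied to the values reported, and barcodes with RNA of another lineage are given as mixed. UMIs were summed per class and library and scaled to CPM with Python 3.11.15, numpy 2.4.6, scipy 1.17.1, pandas 2.3.3 and matplotlib 3.10.9. A gene was measured with at least 50 UMIs over both classes, and a ratio of at least 2 or at most 0.5 was counted. A class at 0 UMIs was set to 3 UMIs for a ratio, and no ratio was given where both classes had at most 3. Each group is 1 library, so no test was made. Intervals at 95% (Clopper-Pearson, Katz and exact conditional Poisson) cover counting error only. The code was tested on simulated data.

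Conventional CD4 cells had Cd4 without Cd8a, Cd8b1 or Foxp3, regulatory cells Foxp3 without Cd8a or Cd8b1, and gamma-delta cells Trdc without these 4 genes. T cells of no such class are unassigned. NK cells had Ncr1 with no Cd3 UMI. Neutrophil genes behind the mixed class were S100a8, S100a9, Csf3r, Cxcr2, Retnlg, G0s2 and Hdc. S100a8 had 0 UMIs in all KO T cells, so the limit was reached on fewer genes in KO than in WT. What this does to KO over WT values without mixed barcodes was not tested. Its macrophage genes were C1qa, C1qb, C1qc, Apoe, Csf1r, Cd14, Adgre1 and Fcgr1, and its MHC class II genes H2-Aa, H2-Ab1, H2-Eb1 and Cd74.

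The cells and the 34 gene lists were chosen with earlier results of these data known. Named genes were the 15 highest and 10 lowest by the less extreme of both libraries' ratios, with at least 50 UMIs in each library and 50 CPM in 1 class of each. All measured genes of the Ifit, receptor, Isg15 conjugation and ligand lists and up to 4 of each other list could also be named, as could the 10 highest and 10 lowest between KO and WT with at least 100 UMIs. No gene was named that is predicted, sex-linked, ribosomal or mitochondrial, or that encodes hemoglobin, an antibody chain or a T cell receptor chain. Alternatives were other limits on rule UMIs, Lyz2, depth and measured genes, removal of high doublet scores (scanpy 1.11.5) and, added after the data were seen, removal of mixed barcodes and CD8 cells alone.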

Additional observations from a re-analysis of the deposited data

Results flagged for a closer look

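With all UMIs, the share of interferon-high cells ran in opposite directions in CD4 subsets of the KO and WT tumors. The ratio of KO over WT was 0.55 among conventional CD4 T cells and 1.46 among regulatory T cells, and the difference between the subsets was not tested. The interval of the regulatory ratio, 0.77 to 2.74, includes 1. Thinned to 3000 UMIs the ratios were 0.77 (0.45 to 1.33) and 1.0 (0.37 to 2.69), so the opposite directions were not seen there, and at 2000 UMIs they were 0.25 and 2.62.

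The interferon-induced genes outside the rule lay on different sides of an even level in the classes. Their median log2 ratio of KO over WT was 0.237 in interferon-high T cells and −0.333 in other T cells. Without mixed barcodes the medians were 0.14 and −0.35, and with Lyz2 at 0 UMIs the median in interferon-high T cells was −0.034, on the same side as in other T cells. This difference was not tested.

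Interferon-high T cells also occurred in bone marrow, which none of the gene comparisons used. The rule found 6 cells in the KO bone marrow library and 3 in the WT one. Without mixed barcodes there were 2 in each, and thinned to 3000 UMIs without mixed barcodes 0 in each.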

How the results depend on the processing

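No paired analysis was possible because each group is 1 library. The number of KO cells, 128, limits what can be seen within subsets.

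Under the alternatives, 293 values of the comparisons stayed within counting error or within 1.5 times the count, 60 moved and 1 changed sign. These follow, and the cause was not tested. A limit of 2 rule UMIs gave shares of 9.83% in KO and 12.3% in WT, and a limit of 5 gave 6.20% and 6.02%. With Lyz2 at 0 UMIs the WT share was 7.94%, gamma-delta cells were 0% of KO interferon-high T cells, 271 genes were higher in KO, 38 lower in both libraries, and 106 higher in KO than in WT, and the median log2 ratio of interferon-induced genes between KO and WT was −0.034. Without high doublet scores, 107 genes were higher and 268 lower in KO than in WT. Scrublet's own threshold failed in the WT tumor library, so a fixed share of the highest scores was removed.

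Thinned to 3000 UMIs, shares of T cells were 5.82% in KO and 5.62% in WT. In WT conventional CD4 cells were 30.4% and unassigned cells 28.7% of the class, in KO gamma-delta cells were 0% of it, NK cells were interferon-high in 0% in KO, and myeloid cells in 4.72% in KO and 5.35% in WT. Genes higher and lower in KO than in WT numbered 109 and 137. Thinned to 2000 UMIs, shares were 4.08% in KO and 4.12% in WT, conventional CD4 cells 4.92% and 25.7% of the class, WT regulatory cells 4.09%, KO gamma-delta cells 0%, and unassigned cells 26.2% and 42.1%. NK shares were 0% and 0.949%, and myeloid shares 3.49% and 3.84%, a ratio of 0.91. Then 42 genes were lower in both libraries, and 83 were higher and 109 lower in KO than in WT.

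With genes from 20 UMIs on, 554 were higher and 633 lower in WT interferon-high T cells, 109 lower in both libraries, and 411 higher and 844 lower in KO than in WT. From 200 UMIs on, 242 were higher and 163 lower in KO, 204 and 100 in WT, 113 and 24 in both libraries, and 93 and 93 between KO and WT. Without mixed barcodes the WT share was 7.80%, KO gamma-delta cells 0%, 284 genes were higher in KO, 97 lower in both libraries, and 61 higher and 183 lower in KO than in WT. In CD8 cells without mixed barcodes, 238 genes were higher in KO, 228 in WT, and 48 higher and 61 lower in KO than in WT.

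The direction of some genes turned. Fos had KO ratios of 0.86 with Lyz2 at 0 UMIs, 0.82 without high doublet scores, 0.54 without mixed barcodes and 0.83 in CD8 cells. Atf3 had 0.59, 0.34 and 0.46 in the last 3 settings. Egr1 had KO ratios of 0.52 without mixed barcodes and 0.60 in CD8 cells, and KO over WT ratios of 0.80, 0.36 and 0.43. G0s2 had KO ratios of 0.67 and 0.68. WT ratios without mixed barcodes were 0.39 for S100a9 and 0.65 for Cxcl2, and in CD8 cells 0.43 for Cxcl2 and 1.21 for Gzmc. Siglech had WT ratios of 0.44 from 5 rule UMIs on, 0.36 without high doublet scores, 0.14 without barcodes holding macrophage or B cell genes and 0.11 without mixed barcodes.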

Other observations

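Among interferon-high T cells without mixed barcodes, Cxcl10 reached 4268 CPM in 16 KO conventional CD4 cells and 1328 CPM in 125 WT ones, and 1972 CPM in 69 KO CD8 cells and 1060 CPM in 107 WT ones. Of these 3 subsets regulatory cells had the lowest level, with 609.7 CPM in 8 KO cells and 458.8 CPM in 22 WT ones. Gamma-delta and unassigned cells were not compared.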
